A study of Homo sapiens with 30 samples.

Results

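The messenger RNA of 41 autophagy and lysosome genes was followed in HepG2 cells, a line long established from a human liver tumour, under Sorafenib and under oligonucleotides that block or imitate a microRNA (miRNA). The 41 genes were taken by symbol from the raw count table, where each matched 1 of 60107 gene identifiers. They were sorted by role into initiation (15 genes), conjugation (12), receptors (3) and lysosome (11).

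Cells were plated, transfected with Lipofectamine RNAiMAX, and given Sorafenib at 10 µM or its solvent DMSO 24 h after transfection. Lysates at 6 h of treatment came from cells given either a control inhibitor (IC) or one against miR-200c-3p (I200c), both with DMSO and with Sorafenib. At 24 h they were the mimic control (MC), the mimic of miR-222-5p (M222) and the mimic of miR-512-3p (M512), again each with DMSO or with Sorafenib. Each of the 10 groups held 3 libraries that the submitters call biological replicates. Every culture was transfected, so no untransfected cells were compared, and all libraries came from 1 cell line. The 6 h libraries all carried an inhibitor and the 24 h libraries all carried a mimic, so that time and kind of oligonucleotide cannot be told apart.

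Macroautophagy wraps cell contents in a double membrane and delivers them to the lysosome for breakdown. The ULK1 kinase complex starts the process, a class III PI3-kinase complex marks the membrane with a phosphoinositide, and ATG2, ATG9A and WIPI proteins help to supply lipid. A ubiquitin-like conjugation cascade then attaches the ATG8 proteins (the LC3 and GABARAP families) to the membrane, receptors such as p62 tie cargo to them, and the lysosome supplies the hydrolases. In liver cells the pathway turns over mitochondria, lipid droplets and protein aggregates. Many of its proteins are controlled by phosphorylation and by their own breakdown, so the level of a transcript is not a measure of autophagic flux.

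QuantSeq 3′ FWD yields 1 read per transcript from its 3′ part. Levels are therefore given as CPM (counts in each 1000000 of a library), scaled across all 30 libraries by TMM factors, and are not divided by gene length. Total counts ran from 3938764 to 9657063 (median 6460786), at which 3 counts, the limit that a count of 0 allows, correspond to 0.311 to 0.762 CPM. This limit covers counting error only. The 41 genes took 0.194% to 0.312% of all counts. Hepatocyte genes were present, with ALB at a median of 3256 CPM (markers are given per library total, without TMM factors). Of 12 markers of other cell types, COL1A2 and VWF were at 0 in all 30 libraries and PTPRC in 29, while the epithelial KRT19 (median 405.5 CPM), LYZ (158 CPM) and EPCAM (120.2 CPM) were detected. The 10 hepatocyte markers summed to 12679 to 19141 CPM in the 24 h DMSO libraries and to 7902 to 12507 CPM in the 24 h Sorafenib libraries, against 11575 to 14948 CPM over all 6 h libraries. The 12 markers of other cell types summed to 627 to 859 CPM with DMSO and 450.2 to 659.7 CPM with Sorafenib at 24 h. The part of these shifts in the 24 h results below was not tested. In bulk RNA, fewer cells of a kind and less RNA per cell cannot be told apart.

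Each mimic acts through the seed, bases 2 to 8, while the inhibitor is an antisense oligonucleotide directed at the miRNA itself. The mature miRNAs are shown with the seed in capitals (RefSeq, GRCh38.p14).
hsa-miR-200c-3p: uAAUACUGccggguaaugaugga
hsa-miR-222-5p: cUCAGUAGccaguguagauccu
hsa-miR-512-3p: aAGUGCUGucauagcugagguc
They lie at chr12:6963742-6963764 on the plus strand, at chrX:45747073-45747094 on the minus strand and, for miR-512-3p, at 2 copies, chr19:53666729-53666750 and chr19:53669213-53669234 on the plus strand. No seed is shared between them.

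The complements of the seeds, which are CAGCACT (miR-512-3p), CTACTGA (miR-222-5p) and CAGTATT (miR-200c-3p), were looked for on the transcript strand of the 3′ untranslated region (UTR) of each gene’s canonical transcript. Windows of 29 bases are shown for 3 of the genes to which the comparisons below return, with the complementary letters in capitals (GENCODE 44, GRCh38).
SQSTM1, miR-512-3p: ttaaatggcatCAGCACTttaaccaatga
NPC2, miR-512-3p: ttcattaaatgCAGCACTtggttagcaga
MAP1LC3B, miR-200c-3p: aatgtgtaactCAGTATTactgaaaaggt
MAP1LC3B, miR-222-5p: atctgggccctCTACTGAttgttaaagga
The capitals lie in the 3′ UTR at chr5:179837240-179837246 (plus strand, SQSTM1), chr14:74480050-74480056 (minus, NPC2), and chr16:87404056-87404062 and chr16:87404451-87404457 (both plus, MAP1LC3B). ATG16L1 and WIPI1 held no CAGCACT in the UTR searched, whereas ATG14 did (chr14:55368482-55368488, minus strand). OPTN, CTSB, PIK3C3, ATG12 and HEXA also held CAGCACT, and their windows are not shown. Such a match is a description of letters and not a functional site.

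Levels spread widely among the 41 genes. LAMP1, a heavily glycosylated protein of the lysosomal membrane, had the highest median (369 CPM, range 233 to 492 over 30 libraries), followed by the protease CTSB (243 CPM) and the receptor SQSTM1 (234 CPM). Their ranges overlapped, from 169 to 405 CPM for CTSB and from 141 to 365 CPM for SQSTM1. At the other end, ULK2 had 1 count over all libraries, MCOLN1, the lysosomal calcium channel, had 143 counts with 4 libraries at 0, and TFEB, a transcription factor for lysosomal genes, had 454 counts. No fold is given for ULK2 or MCOLN1.

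Within the roles a few genes made up most of the signal. SQSTM1 supplied 64.5% of the summed receptor level, NBR1 23.6% and OPTN 11.8%. LAMP1 supplied 32.6% and CTSB 23% of the lysosome level. Conjugation was led by the protease ATG4B (22.1%), GABARAPL2 (20.9%) and MAP1LC3B (15%), and initiation by BECN1 (15.8%).

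Genes were tested across the whole table by the two-sided quasi-likelihood test in edgeR and called at a Benjamini-Hochberg adjusted p under 0.05. Effects are log2 fold changes of Sorafenib over DMSO with their standard error (SE). Of the 41 genes, 39 passed the filter on low counts at 6 h (not ULK2 and MCOLN1) and 40 at 24 h (not ULK2).

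At 6 h Sorafenib called none of the 39 genes in either transfection. In IC 0.0393% of 12738 genes were called, and 1 of the 39 genes had an unadjusted p under 0.05. In I200c 2.28% of all genes were called, and 4 of the 39 had an unadjusted p under 0.05 (ULK1 -0.56, UVRAG 0.70, WIPI1 -0.65 and LAMP2 -0.45). Both shares of all genes are at the adjusted threshold, so the unadjusted counts have no background here and are not read as an excess. DESeq2 also called none at 6 h in IC or I200c. The medians of the 39 effects were -0.02 in IC and 0.04 in I200c, and those of the 12738 genes 0.00 and 0.01.

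UVRAG, a subunit of the class III PI3-kinase complex that acts in endosome and autophagosome maturation, was the gene furthest from 0 at 6 h. It stood at 30.7, 34.7 and 20.8 CPM in IC with DMSO and at 39.5, 48.5 and 43.5 CPM with Sorafenib. In I200c it was 29.2, 17.6 and 29.1 CPM with DMSO and 35.7, 46.2 and 41.3 CPM with Sorafenib. In both transfections the 3 Sorafenib libraries lay above the 3 DMSO libraries. Averaged over the 2 transfections, a contrast added after seeing the data, UVRAG rose by 0.65 (1.57-fold, adjusted p = 0.0279 by edgeR), the sole call among the 39, where 2.89% of all genes were called and 1.15% were called higher. The call was lost without IC DMSO replicate 1 (adjusted p = 0.061) or 3 (0.0897), IC Sorafenib replicate 2 (0.0749) or 3 (0.0596), or I200c Sorafenib replicate 2 (0.0815).

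At 24 h Sorafenib moved few of the genes in any single transfection, and MAP1LC3B was called in each of them. In MC 1 of 40 genes was called (higher), against 2.6% of 13244 genes called in either direction and 1.8% called higher. In M222 2 of 40 were called, 1 higher and 1 lower, against 4.38% of all genes (2.82% higher, 1.56% lower). In M512 5 of 40 were called, 3 higher and 2 lower, against 9.96% of all genes (5.34% higher, 4.62% lower). With library totals in place of TMM factors the median effect of all genes moved to -0.12, -0.14 and -0.22 in MC, M222 and M512, and the share of calls that were higher fell from 69.5% to 50.1%, from 64.3% to 47.9% and from 53.6% to 29.9%. The 3 contrasts use different libraries but share 1 estimate of the spread.

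**Figure D1:**
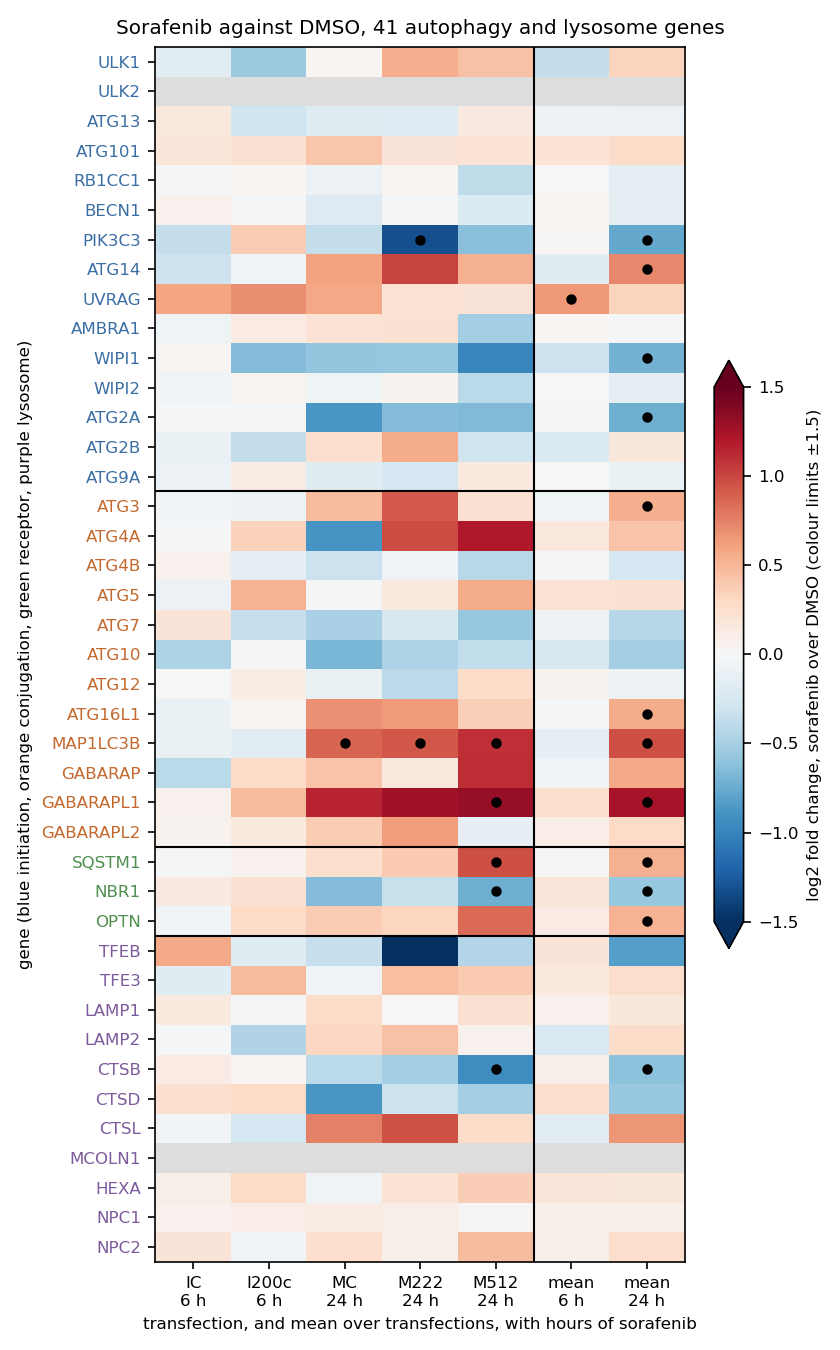
Colours give the log2 fold change of Sorafenib over DMSO for each gene (rows, grouped by role) in each transfection and averaged over the transfections of 6 h or 24 h (columns). Dots mark an adjusted p under 0.05 and grey cells are genes not tested or with nearly no counts (ULK2, MCOLN1). Dots stand at MAP1LC3B in every 24 h column and in no 6 h transfection.

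MAP1LC3B encodes LC3B, the ATG8 protein whose lipid-bound form is the usual marker of autophagosomes (chr16:87383953-87404779, plus strand). In MC it was at 48.7, 54.0 and 39.6 CPM with DMSO and at 65.0, 84.35 and 111 CPM with Sorafenib. In M222 it was at 34.0, 38.3 and 35.7 CPM against 67.5, 64.8 and 73.7 CPM, and in M512 at 39.5, 40.7 and 48.5 CPM against 82.5, 81.5 and 117 CPM. In each of these transfections all Sorafenib libraries lay above all DMSO libraries. MAP1LC3B rose by 0.87 in MC (SE 0.22, 1.83-fold, adjusted p = 0.029 by edgeR), by 0.93 in M222 (SE 0.22, 1.91-fold, adjusted p = 0.0145) and by 1.09 in M512 (SE 0.22, 2.13-fold, adjusted p = 0.00185). At 6 h its effects were -0.12 in IC and -0.18 in I200c, with 43.3 to 65.9 CPM over the 12 libraries.

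The M512 call held without any 1 of the 18 libraries. The MC call was lost without MC DMSO replicate 1 (adjusted p = 0.0928) or 3 (0.217) or MC Sorafenib replicate 3 (0.247), and with library totals (effect 0.77, adjusted p = 0.0689). The M222 call was lost without M222 DMSO replicate 1 (0.0672) or 3 (0.0612) or M222 Sorafenib replicate 3 (0.0584).

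GABARAPL1, an ATG8 protein of the GABARAP branch, was low with DMSO. Its levels in M512 were 12.2, 4.67 and 10.7 CPM with DMSO and 17.1, 24.5 and 28.7 CPM with Sorafenib, and the groups did not overlap. It rose by 1.31 in M512 (SE 0.40, 2.48-fold, adjusted p = 0.0361 by edgeR). In MC it was at 12.2, 15.98 and 12.3 CPM against 41.8, 15.95 and 30.7 CPM (effect 1.14, adjusted p = 0.12), and in M222 at 5.88, 14.3 and 11.96 CPM against 21.6, 20.2 and 34.2 CPM (effect 1.26, adjusted p = 0.0728). Only in MC did a Sorafenib library lie among the DMSO values. The M512 call was lost with library totals (adjusted p = 0.0652), without M512 DMSO replicate 2 (0.165) or 3 (0.0694) and without M512 Sorafenib replicate 2 (0.0669) or 3 (0.109).

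**Figure D2:**
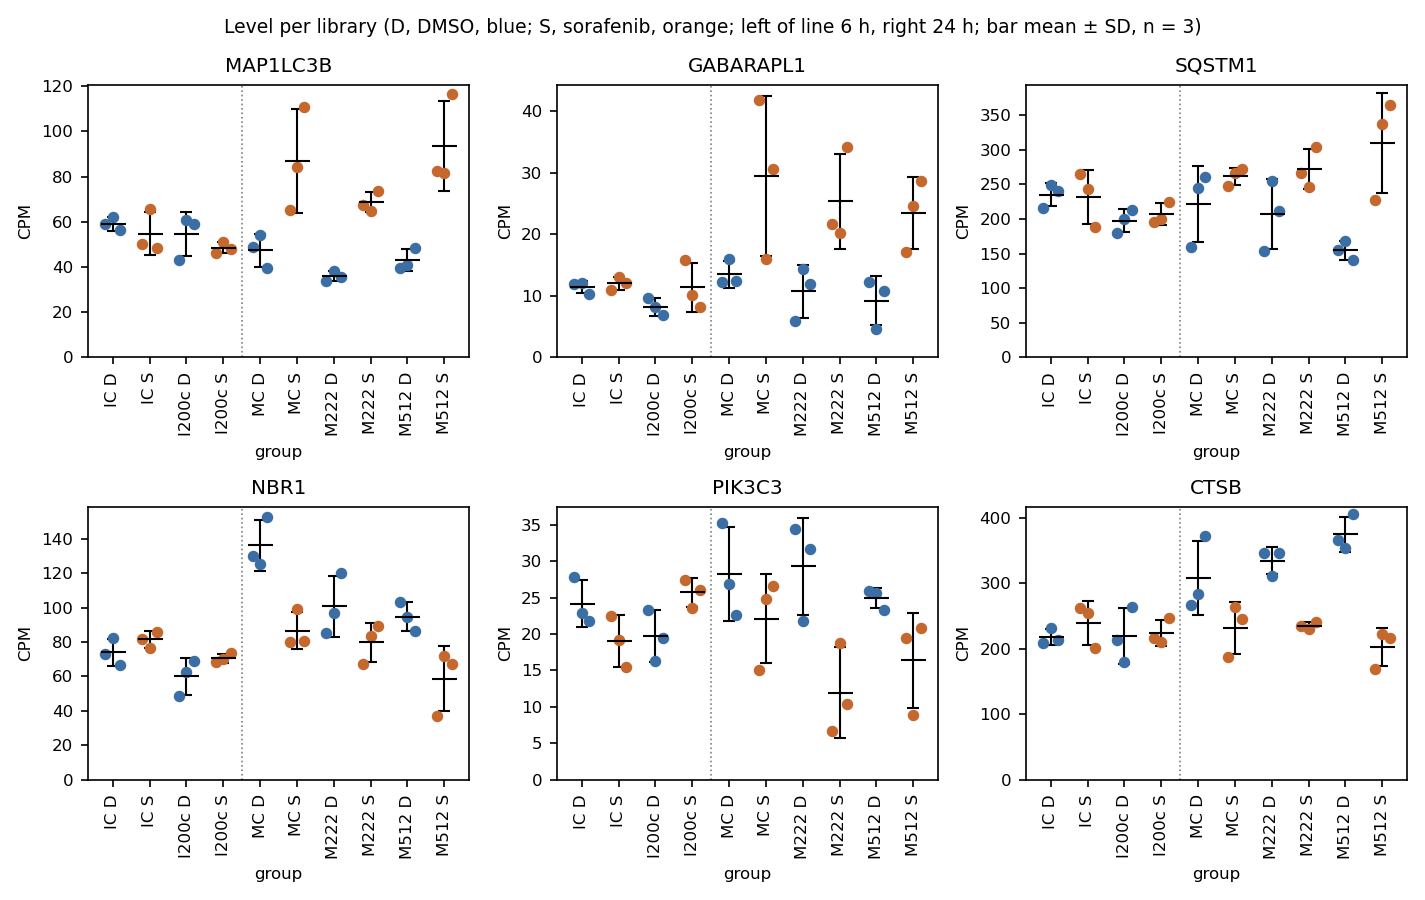
Points give CPM in each library for 6 genes in the 10 groups (D, DMSO, blue, and S, Sorafenib, orange), with bars for mean ± SD (n = 3) and 6 h groups left of the dotted line. MAP1LC3B is at 64.8 CPM or more in the 24 h Sorafenib libraries and at 54.0 CPM or less in the 24 h DMSO libraries, and CTSB runs the other way within each 24 h transfection.

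SQSTM1 encodes p62, which binds ubiquitinated cargo and ATG8 proteins and is itself degraded by autophagy (chr5:179806398-179838078, plus strand). In M512 it was at 155, 169 and 141 CPM with DMSO and at 227, 337 and 365 CPM with Sorafenib, with no overlap. It rose by 0.96 (SE 0.21, 1.95-fold, adjusted p = 0.00485 by edgeR), and the call held without any 1 of the 18 libraries. In MC it was at 159, 245 and 260.5 CPM against 247.5, 266 and 272 CPM (effect 0.25, adjusted p = 0.6), and in M222 at 154, 255 and 212 CPM against 267, 247 and 304 CPM (effect 0.39, adjusted p = 0.324). The DMSO libraries of MC and M222 spread more than those of M512. MRNIP, on the opposite strand, overlaps the last 500 bases of the SQSTM1 transcript, and the handling of strand in the counting is not given in the sources used here.

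The receptor NBR1, which binds ubiquitinated cargo beside p62, went the other way. In M512 it was at 103, 94.7 and 86.4 CPM with DMSO and at 36.9, 72.0 and 67.1 CPM with Sorafenib, and it fell by 0.73 (SE 0.22, 1.66-fold lower, adjusted p = 0.0336 by edgeR). In MC it was at 130.1, 125 and 153 CPM against 80.0, 99.3 and 80.6 CPM (effect -0.65, adjusted p = 0.109). In M222 the groups overlapped, at 85.3, 96.7 and 120.0 CPM against 67.1, 83.2 and 89.2 CPM (effect -0.34, adjusted p = 0.424). The M512 call was lost without MC Sorafenib replicate 3 (0.0506), M512 DMSO replicate 1 (0.135), 2 (0.1) or 3 (0.0672) or M512 Sorafenib replicate 1 (0.203).

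CTSB encodes cathepsin B, a cysteine protease of the lysosome. In M512 it was at 366, 355 and 405 CPM with DMSO and at 169, 222.3 and 216 CPM with Sorafenib, and it fell by 0.93 (SE 0.18, 1.90-fold lower, adjusted p = 0.00128 by edgeR), which held without any 1 of the 18 libraries. It was at 267, 285 and 372 CPM against 187, 264 and 245 CPM in MC (effect -0.40, adjusted p = 0.232) and at 346, 311 and 347 CPM against 234, 230.1 and 241 CPM in M222 (effect -0.51, adjusted p = 0.0974). All Sorafenib libraries lay below all DMSO libraries in each 24 h transfection. In IC and I200c, at 6 h, the 12 libraries ran from 180.3 to 265 CPM.

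PIK3C3 encodes VPS34, the lipid kinase of the class III complex. In M222 it was at 34.4, 21.7 and 31.7 CPM with DMSO and at 6.70, 18.8 and 10.3 CPM with Sorafenib, and it fell by 1.32 (SE 0.37, 2.49-fold lower, adjusted p = 0.0372 by edgeR). In MC the groups overlapped, at 35.2, 26.9 and 22.6 CPM against 15.1, 24.7 and 26.5 CPM (effect -0.36, adjusted p = 0.667). In M512 the effect was -0.62 (adjusted p = 0.299), and the levels were 25.8, 25.6 and 23.4 CPM against 19.4, 8.93 and 20.9 CPM. The M222 call held in 10 of 18 fits with 1 library left out. It was lost without MC DMSO replicate 2 (adjusted p = 0.0523), MC Sorafenib replicate 3 (0.0505), M222 DMSO replicate 1 (0.121) or 3 (0.145), M222 Sorafenib replicate 1 (0.246) or 3 (0.175), and M512 DMSO replicate 2 (0.0567) or 3 (0.0555).

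ATG14, ATG16L1 and WIPI1 were called in no single transfection, although some alternatives called ATG14 in M222 and WIPI1 in M512. With no filter the M222 effect of ATG14 was 1.02 (adjusted p = 0.0479 by edgeR). ATG14, the subunit that directs VPS34 to autophagosome formation, was at 24.2, 23.7 and 13.4 CPM in MC with DMSO and 23.9, 30.3 and 38.6 CPM with Sorafenib. In M222 it was at 5.44, 23.8 and 17.3 CPM against 30.8, 34.2 and 28.2 CPM, and in M512 at 22.4, 29.6 and 21.1 CPM against 24.3, 59.8 and 25.2 CPM. Of these only the M222 groups did not overlap, and 1 M512 Sorafenib library stood far above the other 2.

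ATG16L1, which places the conjugation machinery on the membrane, was at 14.9, 27.6 and 19.8 CPM against 28.1, 35.3 and 36.3 CPM in MC. It was at 21.98, 23.3 and 17.3 CPM against 29.4, 31.96 and 36.3 CPM in M222 and at 29.7, 22.5 and 26.9 CPM against 32.4, 29.8 and 41.1 CPM in M512. In each transfection the Sorafenib libraries lay above the DMSO libraries, by effects of 0.69, 0.64 and 0.36 (adjusted p = 0.157, 0.171 and 0.425 by edgeR).

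WIPI1, which binds the phosphoinositide made by VPS34, was at 16.2, 14.8 and 24.5 CPM against 15.4, 10.2 and 11.4 CPM in MC and at 22.2, 13.8 and 22.2 CPM against 7.73, 15.0 and 17.0 CPM in M222. In M512 it was at 21.7, 20.2 and 21.1 CPM against 10.7, 8.93 and 12.8 CPM. The M512 groups were the ones that did not overlap (effect -0.98, adjusted p = 0.064), and 3 of the alternatives called it (library totals 0.0297, DESeq2 0.04, replicate block 0.0499).

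Averaged over MC, M222 and M512, a contrast added after seeing the data on the same 18 libraries, 12 of 40 genes were called, 7 higher and 5 lower. This was near the background of 25.8% of 13244 genes (13.4% higher, 12.4% lower). The median effect was 0.17 over the 40 genes and -0.04 over all genes, and with library totals these became 0.03 and -0.17. Under library totals 9 of the 12 calls were kept and none changed direction, with ATG3, ATG14 and OPTN lost (adjusted p = 0.142, 0.0534 and 0.0999 by edgeR), while among all genes 32.8% instead of 52.1% of calls were higher.

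In this average 4 of 12 conjugation genes were called, all higher, with a median of 0.36. GABARAPL1 rose 2.36-fold (1.24, SE 0.23, adjusted p = 0.000303 by edgeR), MAP1LC3B 1.95-fold (0.96, SE 0.13, adjusted p = 4.23e-06), ATG16L1 1.47-fold (adjusted p = 0.0073) and ATG3 1.45-fold (adjusted p = 0.0471). ATG3 is the E2-like enzyme that transfers ATG8 proteins to lipid. The other ATG8 genes GABARAP (0.56, adjusted p = 0.0554) and GABARAPL2 (0.29, adjusted p = 0.199) did not pass, nor did the proteases ATG4A and ATG4B, the E1-like ATG7, the E2-like ATG10, ATG5 or ATG12. GABARAP was called higher with DESeq2 (0.0492), with no filter (0.0137) and with the replicate number as a block (0.0178 by edgeR), and ATG4B was called lower with library totals (-0.41, adjusted p = 0.00981).

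The 3 receptors were all called, with SQSTM1 (1.45-fold, 0.53, adjusted p = 0.00229) and OPTN (1.43-fold, adjusted p = 0.0324) higher and NBR1 (1.49-fold, -0.57, adjusted p = 0.00152) lower. OPTN encodes optineurin, a receptor for damaged mitochondria and bacteria. SQSTM1 and NBR1 held without any 1 library. OPTN was lost without MC DMSO replicate 1 (0.0519), MC Sorafenib replicate 1 (0.0507), M222 DMSO replicate 1 (0.0672), M222 Sorafenib replicate 3 (0.0527), M512 DMSO replicate 1 (0.0771) or M512 Sorafenib replicate 2 (0.0923).

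In initiation 4 of 14 genes were called, 1 higher and 3 lower, with a median of -0.09. ATG14 rose 1.64-fold (0.72, SE 0.23, adjusted p = 0.0232), while PIK3C3 fell by 0.77 (1.7-fold lower, SE 0.21, adjusted p = 0.00809), WIPI1 by 0.71 (SE 0.19, adjusted p = 0.00854) and ATG2A, a lipid transfer protein, by 0.73 (SE 0.18, adjusted p = 0.0041). None of the 4 tested genes of the ULK1 complex was called, with ULK1 itself at 0.34 (adjusted p = 0.0773), and neither were BECN1 (-0.14, adjusted p = 0.398) and AMBRA1 (-0.02, adjusted p = 0.956). ATG14 was lost without MC DMSO replicate 3 (0.0501) or M512 Sorafenib replicate 2 (0.0661).

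Of 11 lysosome genes, CTSB alone was called (fell by 0.61, 1.53-fold lower, SE 0.10, adjusted p = 8.39e-05), and the median was 0.17. LAMP1 (0.17, adjusted p = 0.259), LAMP2 (0.27, adjusted p = 0.131), the cholesterol transporters NPC1 (0.07, adjusted p = 0.825) and NPC2 (0.27, adjusted p = 0.101), and HEXA (0.17, adjusted p = 0.502) did not pass. The proteases CTSD (-0.57, adjusted p = 0.115) and CTSL (0.66, adjusted p = 0.135) had wide errors (SE 0.26 and 0.32), and both passed when no filter on low counts was used (adjusted p = 0.000149 and 0.00708). Of the regulators, TFE3 was at 0.27 (adjusted p = 0.305) and TFEB at -0.83 (SE 0.51, adjusted p = 0.24).

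Leaving out any 1 library kept CTSB, MAP1LC3B, GABARAPL1, SQSTM1, NBR1, ATG16L1, ATG2A, PIK3C3 and WIPI1 in this average. ATG3 held in 6 of 18 such fits. It was lost, at adjusted p of 0.0508 to 0.139, without MC DMSO replicates 1, 2 or 3, MC Sorafenib 1 or 3, M222 DMSO 2 or 3, M222 Sorafenib 1 or 3, M512 DMSO 1, or M512 Sorafenib 1 or 3. It was also lost with the replicate number as a block (adjusted p = 0.0548 by edgeR).

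**Figure D3:**
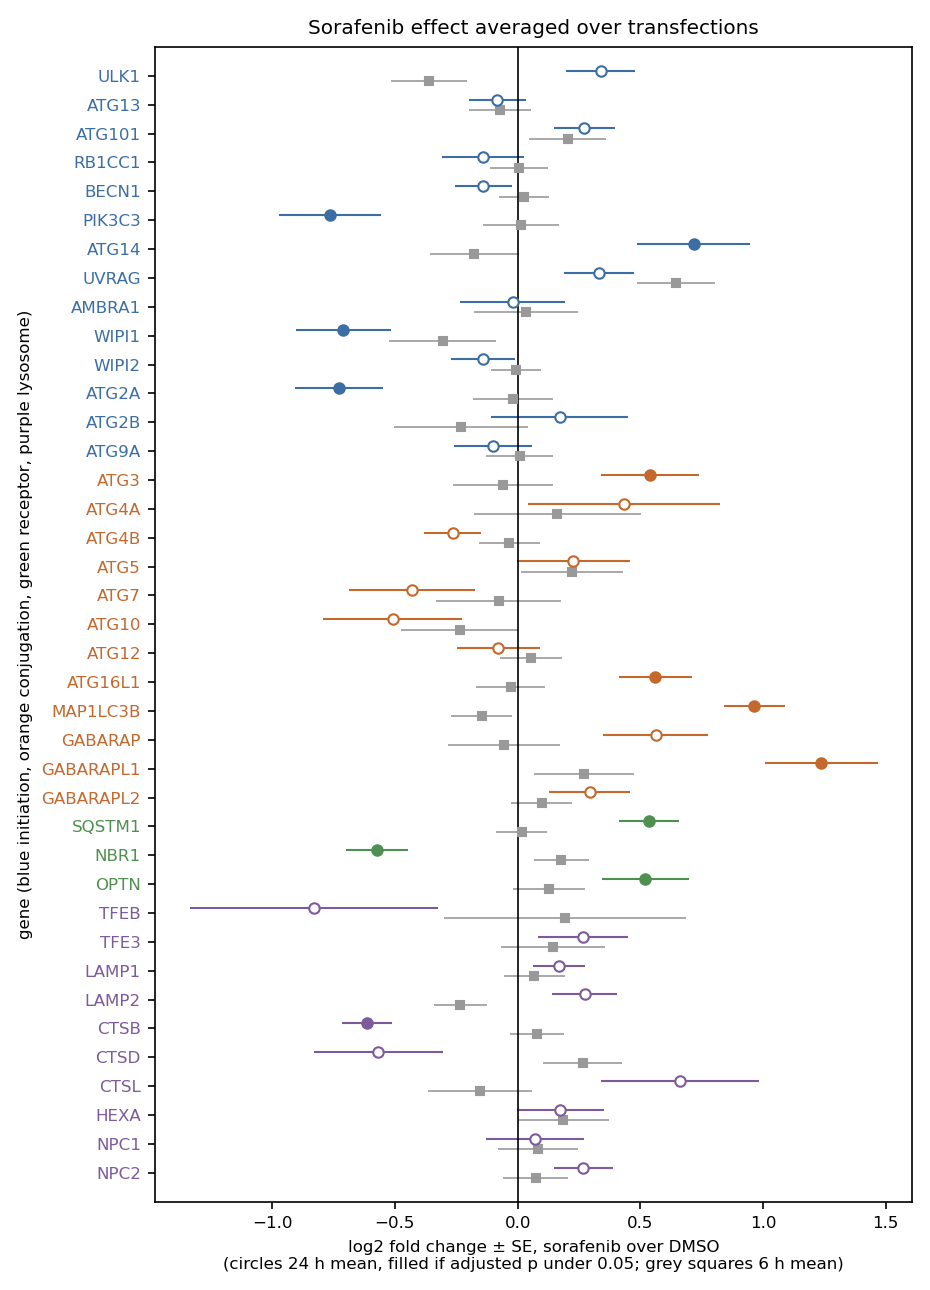
The x axis gives the log2 fold change of Sorafenib over DMSO ± SE, averaged over the 24 h transfections (circles, filled where the adjusted p was under 0.05) and over the 6 h transfections (grey squares). ULK2 and MCOLN1 are left out for their low counts. All 4 ATG8 genes lie to the right of 0 at 24 h, between 0.29 and 1.24, of which MAP1LC3B and GABARAPL1 were called.

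The effect had the same sign in MC, M222 and M512 for 28 of the 40 genes, above 0 for 16 (40%) and below 0 for 12 (30%). Over all 13244 genes the shares were 26.8% and 29.5%. At 6 h the same sign in IC and I200c was seen above 0 for 9 of 39 genes (23.1%) and below 0 for 9 (23.1%), against 32.6% and 31.8% of 12738 genes.

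Levels were also summed within each role. The 12 conjugation genes summed to 363 ± 16.5 CPM in MC with DMSO and 437 ± 39.7 CPM with Sorafenib (SD, n = 3). In M222 these sums were 339 ± 15.0 and 448 ± 32.7 CPM, and in M512 376 ± 19.4 and 458 ± 66.2 CPM. On this TMM scale the groups did not overlap in these 3 transfections, and at 6 h the group means of the conjugation sum were 378 to 389 CPM. Per library total, a scale added after seeing the data, the M512 groups overlapped (365 to 407.5 CPM with DMSO and 319 to 498 CPM with Sorafenib), while MC (382.5 ± 15.8 and 428 ± 30.2) and M222 (345 ± 25.8 and 422 ± 22.4) did not overlap. No test was run on the sums. The receptor sum was 273 ± 19.7 CPM in M512 with DMSO and 412 ± 99.9 CPM with Sorafenib, with 406 ± 76.0 and 411.5 ± 7.5 CPM in MC and 351 ± 70.4 and 407 ± 45.8 CPM in M222. The initiation sum was 681 ± 39.1 and 653 ± 8.8 CPM in MC, 568 ± 40.8 and 562 ± 48.3 CPM in M222, and 666 ± 27.3 and 626 ± 33.6 CPM in M512. The lysosome sum was 1142 ± 238.1 and 1105 ± 90.7 CPM in MC, 1304 ± 182.7 and 1222 ± 151.0 CPM in M222, and 1227 ± 39.8 and 1129 ± 65.2 CPM in M512. On the TMM scale the differences of the initiation and lysosome sums were within the SD of the DMSO libraries in MC and M222 and beyond it in M512. The groups of both sums overlapped on this scale in MC, M222 and M512. Per library total, the initiation sum was 718 ± 44.6 and 640 ± 17.8 CPM in MC. It was 577 ± 25.1 and 530.5 ± 50.5 CPM in M222, and 683 ± 31.5 and 550 ± 50.1 CPM in M512. These groups overlapped in M222 alone. The lysosome sum per library total was 1258 ± 39.3 and 988 ± 32 CPM in M512, without overlap, while the groups overlapped in MC and M222.

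The effect of Sorafenib was compared between 24 h and 6 h in the 12 control libraries (MC and IC) as an interaction. None of the 39 genes tested was called, against 0.216% of 12500 genes, and 7 had an unadjusted p under 0.05 (17.9%, against 13.7% of all genes). These were NBR1 (-0.81, unadjusted p = 0.00191, adjusted p = 0.13 by edgeR), MAP1LC3B (0.97, unadjusted p = 0.00349, adjusted p = 0.153), ATG2A (-0.89), GABARAPL1 (1.05), ATG14 (0.89), ATG16L1 (0.77) and CTSB (-0.56). DESeq2 called 1 of the genes, NBR1. The difference between the time points, which is also the difference between inhibitor and mimic, was therefore not shown for any of these genes by the main test.

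The oligonucleotides called none of the genes in any contrast. I200c against IC called 0.0157% of 12738 genes with DMSO and 0% with Sorafenib, and the interaction of I200c with Sorafenib 0%. For M222 against MC, the shares were 0% with DMSO, 0% with Sorafenib and 0% for the interaction. M512 against MC called 0.634% of 13244 genes with DMSO, 0.355% with Sorafenib and 0.00755% for the interaction. At an unadjusted p under 0.05 there were 1, 1 and 1 of the 39 genes for I200c, 3, 2 and 0 of the 40 genes for M222, and 4, 2 and 3 of the 40 genes for M512, and DESeq2 called none in these 9 contrasts. The shares of all genes above are at the adjusted threshold. They are no background for these unadjusted counts, which are not read as an excess. Contrasts of M222 and M512 share the MC libraries.

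With M512 and DMSO, the genes with an unadjusted p under 0.05 were the 3 receptors and NPC2, all lower than in MC. Among the genes tested this was near the share of all genes that reached it (10.5%), and none was called by the main test. OPTN was at 36.2, 47.5 and 62.6 CPM in MC and at 17.2, 28.5 and 25.04 CPM in M512, with no overlap (-1.05, SE 0.31, unadjusted p = 0.00251, adjusted p = 0.146 by edgeR). With no filter on low counts OPTN was called (adjusted p = 0.0174). SQSTM1 (-0.52, adjusted p = 0.352) overlapped between the groups, and NBR1 (-0.53, adjusted p = 0.352) and NPC2 (-0.48, adjusted p = 0.384) did not. With Sorafenib the M512 libraries had OPTN at 32.8, 69.0 and 29.7 CPM and MC at 75.4, 51.1 and 63.1 CPM, which overlapped. The interaction of M512 with Sorafenib was 0.72 for SQSTM1 (SE 0.30, unadjusted p = 0.0252, adjusted p = 0.952), so that its call in M512 and not in MC was not shown to be a difference.

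M222 with DMSO had BECN1, the scaffold of the class III complex, at 74.6, 77.0 and 59.1 CPM against 132, 101 and 113 CPM in MC (-0.74, SE 0.20, unadjusted p = 0.00118, adjusted p = 0.356 by edgeR). With Sorafenib it was at 71.3, 80.5 and 55.3 CPM against 105, 102 and 96.2 CPM (-0.58, adjusted p = 0.619). The groups did not overlap in either treatment. BECN1 shares its 3′ end region with CNTD1 on the opposite strand. The other genes with an unadjusted p under 0.05 were WIPI2 (-0.50) and NBR1 (-0.46) with DMSO and PIK3C3 (-0.93) with Sorafenib. For I200c they were LAMP2 with DMSO (0.39, adjusted p = 0.899) and GABARAP with Sorafenib (0.76).

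The oligonucleotide effects were also read by whether a 3′ UTR held the complementary letters. For miR-512-3p, 8 of 40 genes held CAGCACT, with a median effect of M512 over MC of -0.07 with DMSO, against 0.08 for the 32 without. Over all genes with a UTR the medians were -0.05 for the 2574 of 11203 (23%) that held it and 0.03 for the rest. For miR-222-5p, 4 of 40 genes held CTACTGA (median -0.18, against -0.14 without), where the medians over all genes were -0.18 for 1177 (10.5%) and 0.02. For miR-200c-3p, 9 of 39 held CAGTATT (median -0.15 for I200c over IC, against -0.04), with 0.02 for 2122 of 11010 genes (19.3%) and 0.01 for the rest. With Sorafenib the medians with and without the letters were -0.03 and 0.02 for M512, -0.003 and -0.04 for M222, and -0.065 and -0.063 for I200c. Over all genes they were then -0.11 and 0.02 for M512, -0.185 and 0.005 for M222, and -0.006 and 0.01 for I200c. MAP1LC3B, which holds letters for 2 of the miRNAs, was called in no oligonucleotide contrast. These medians are descriptions of few genes.

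**Figure D4:**
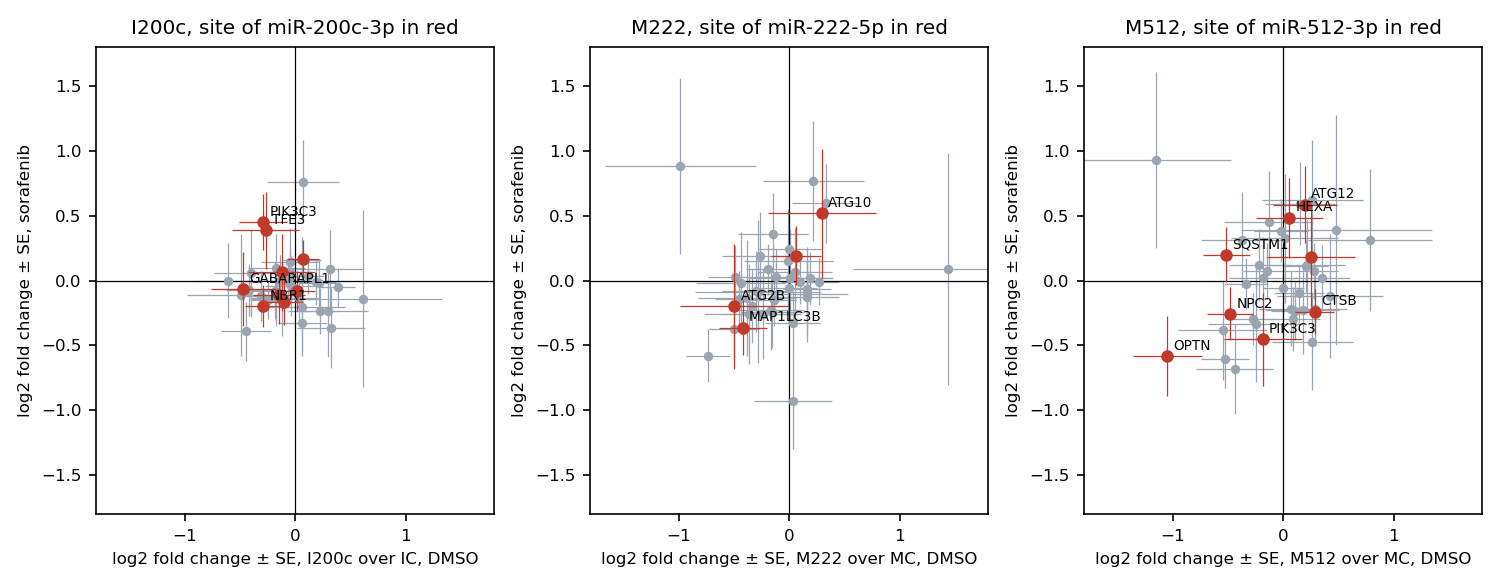
Each point is 1 gene, with the log2 fold change ± SE of the oligonucleotide over its control with DMSO (x axis) and with Sorafenib (y axis). Red marks genes with the complementary letters in the 3′ UTR, named where either value is over 0.25 in size, error bars are cut at the axis limits, and no gene was called. OPTN lies at -1.05 with DMSO in the M512 panel.

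Promoters (250 bases before to 50 after the start of transcription, RefSeq, GRCh38.p14) were matched for 36 of the 41 genes, 46 promoters in all. They were searched on both strands for CACGTG, the core bound by TFEB, TFE3 and other E-box factors, its extension TCACGTGA, TGATGNAA, a motif of ATF4 and C/EBP factors, and TGACNNNGC, the NRF2 motif. CACGTG was in 5 of 46 (10.9%, against 7.26% of 35116 promoters), TCACGTGA, whose matches all hold CACGTG, in 3 (6.52%, against 0.98%), TGATGNAA in 0 (against 3.62%) and TGACNNNGC in 6 (13%, against 13.3%). CACGTG was found in ATG3, CTSD, LAMP1, ATG14 and MCOLN1. The promoters of MAP1LC3B and ATG14, which were called at 24 h, and of LAMP1, which was not and holds 6 copies of CACGTG, are shown with these motifs in capitals.
MAP1LC3B, chr16:87392086-87392385, plus strand: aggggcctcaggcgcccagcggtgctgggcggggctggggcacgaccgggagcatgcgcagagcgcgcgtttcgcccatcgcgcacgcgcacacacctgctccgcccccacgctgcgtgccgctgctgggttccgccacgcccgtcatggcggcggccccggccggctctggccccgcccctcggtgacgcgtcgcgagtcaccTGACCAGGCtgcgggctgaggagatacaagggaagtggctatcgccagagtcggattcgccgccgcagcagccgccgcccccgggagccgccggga
ATG14, chr14:55411781-55412080, minus strand: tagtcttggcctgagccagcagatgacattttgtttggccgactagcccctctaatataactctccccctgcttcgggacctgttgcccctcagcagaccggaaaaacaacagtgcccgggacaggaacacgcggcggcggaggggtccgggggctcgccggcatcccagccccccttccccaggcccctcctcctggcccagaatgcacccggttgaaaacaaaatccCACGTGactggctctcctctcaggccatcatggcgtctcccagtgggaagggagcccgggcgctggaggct
LAMP1, chr13:113296989-113297288, plus strand: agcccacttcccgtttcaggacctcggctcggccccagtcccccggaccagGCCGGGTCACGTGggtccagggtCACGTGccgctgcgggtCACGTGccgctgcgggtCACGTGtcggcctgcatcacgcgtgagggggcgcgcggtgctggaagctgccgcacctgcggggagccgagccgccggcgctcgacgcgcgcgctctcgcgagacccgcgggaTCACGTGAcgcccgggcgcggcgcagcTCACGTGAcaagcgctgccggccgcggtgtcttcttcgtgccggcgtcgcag
The capitals are TGACNNNGC in MAP1LC3B and CACGTG in ATG14. In LAMP1 they are CACGTG and its extension TCACGTGA, and the first run also holds the reverse complement of TGACNNNGC. A match is not evidence of binding, and the effects of the 3 genes in the 24 h average were 0.96, 0.72 and 0.17.

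A wider list of 143 other autophagy and lysosome genes was read beside the 41, of which 126 were tested at 6 h and 128 at 24 h. Sorafenib called 0 in IC with edgeR and 1 in I200c, the mTORC1 inhibitor DDIT4 (0.99, adjusted p = 0.0106 by edgeR). It called 4 in MC, 5 in M222 and 11 in M512 (0 to 7, 2 to 7 and 5 to 12 without any 1 library). Over all genes tested 2.28% were called in I200c, 2.6% in MC, 4.38% in M222 and 9.96% in M512. SESN2, a leucine sensor that restrains mTORC1, was called in all 3. Its mean level went from 93.6 ± 9.42 to 194 ± 51.4 CPM in MC (1.06, adjusted p = 0.029), from 101 ± 24.7 to 326 ± 99.7 CPM in M222 (1.69, adjusted p = 0.000629) and from 58.9 ± 17.2 to 257 ± 70.3 CPM in M512 (2.09, adjusted p = 2.29e-05; SD, n = 3). The M222 and M512 calls held without any 1 library, and the MC call was lost without MC DMSO replicate 1 (0.122) or 3 (0.123) or MC Sorafenib replicate 1 (0.156) or 3 (0.125).

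DDIT4 went from 8.64 ± 2.27 to 83.5 ± 11.02 CPM in M512 (3.24, SE 0.55, adjusted p = 0.000423 by edgeR). ATP6V1F, of the soluble V1 sector of the proton pump, rose by 0.83 in M512 (adjusted p = 0.00511) and NCOA4, the ferritin receptor, fell by 0.83 (adjusted p = 0.00521). These 3 calls held without any 1 of 18 libraries. ATP6V0A1, of the membrane V0 sector of the pump, fell by 0.96 in MC (adjusted p = 0.0239) and by 1.13 in M222 (adjusted p = 0.00586). The first was lost without MC DMSO replicate 1 (0.0966) or 3 (0.142) or MC Sorafenib replicate 1 (0.163) or 2 (0.0524), and the second without M222 Sorafenib replicate 3 (0.0508).

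FLCN, a regulator of the Rag GTPases, rose by 0.98 in MC (adjusted p = 0.0313) and 0.86 in M512 (adjusted p = 0.0266), and the receptor TAX1BP1 by 0.68 in M222 (adjusted p = 0.0284) and 0.65 in M512 (adjusted p = 0.0223). Each of these 4 calls was lost without 1 or more libraries of its own groups, up to adjusted p of 0.168, 0.116, 0.14 and 0.124 in that order. For FLCN the libraries were MC DMSO replicates 1 and 3 and MC Sorafenib 1 and 3, and M512 DMSO 1, 2 and 3 and M512 Sorafenib 1. For TAX1BP1 they were M222 DMSO 1 and 3 and M222 Sorafenib 1 and 3, and M512 DMSO 1 and M512 Sorafenib 2. ATP6V0B rose by 1.43 in M512 (adjusted p = 0.0172), but its effect was 0.68 (adjusted p = 0.218) without M512 Sorafenib replicate 3, and it was lost as well without M512 DMSO replicate 1 (0.0557) or 3 (0.0802).

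In the 24 h average 45 of the 128 genes were called, 25 higher and 20 lower, with a median effect of -0.04, beside -0.04 over all genes. With library totals 33 of the 45 were kept, none changed direction, and the split was 13 higher and 28 lower among 41. Without any 1 library the count ran from 33 to 46. By role, 11 of 26 nutrient-sensing genes were called (8 higher), 7 of 15 proton pump genes (5 higher) and 6 of 13 receptors (5 higher). In the enzyme list, which also holds NAGPA, 7 of 33 genes were called (6 lower). Of membrane proteins of the lysosome 7 of 16 were called (5 lower), and of fusion genes 4 of 14 (2 higher). These values stand beside the 25.8% of all genes called.

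Of the 15 proton pump genes 7 were called, namely 5 of the V1 sector, which were higher, and 2 of the V0 sector, which were lower. The difference between the sectors was not tested. Of the V0 genes ATP6V0D1 (-0.66, adjusted p = 0.0335 by edgeR) was lost in 10 of 18 fits without 1 library, at up to 0.157, and ATP6V0B (0.51) was called higher with no filter (0.00912). ATP6V1F rose by 0.41 (adjusted p = 0.00598 by edgeR) and ATP6V1E1 by 0.40 (adjusted p = 0.00873), while ATP6V0A1 fell by 0.90 (adjusted p = 2.43e-05). With library totals ATP6V1F and ATP6V0A1 kept their calls and ATP6V1E1 (adjusted p = 0.0763), ATP6V1A (0.144), ATP6V1B2 (0.172) and ATP6V1G1 (0.247) lost theirs. In the enzyme list, NAGPA (-0.51, adjusted p = 0.0104) was lower and held without any 1 of the 18 libraries, whereas SGSH (-0.95, adjusted p = 0.025) held in 12 of 18 such fits and reached 0.111.

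**Figure D5:**
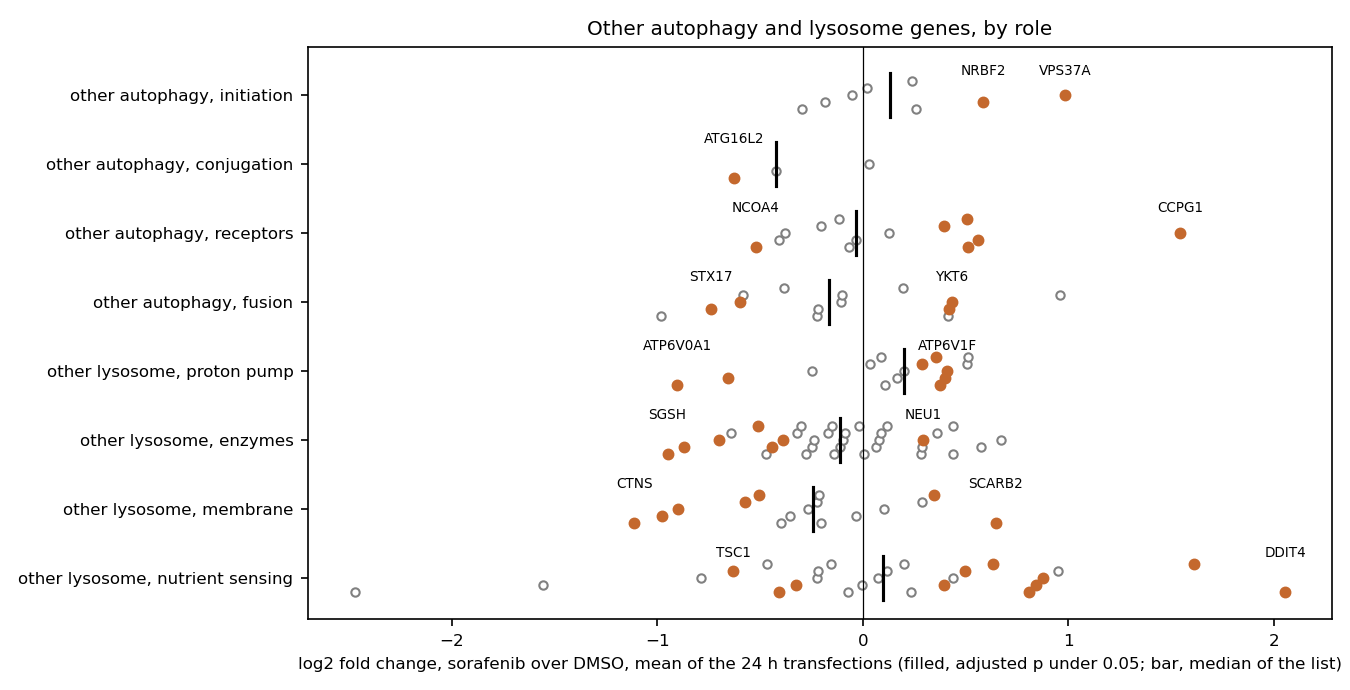
Points give the log2 fold change of Sorafenib over DMSO in the 24 h average for 128 other autophagy and lysosome genes, by role, filled where the adjusted p was under 0.05, with a bar at the median of each role. The lowest and highest called genes of each role are named, and DDIT4 at 2.06 lies furthest to the right.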

How the data were processed

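Libraries were QuantSeq 3′ FWD of total RNA from HepG2 cultures, 30 libraries in 10 groups of 3 given by the labels. Per the authors, reads were run through the QuantSeq pipeline of Bluebee, with trimming, alignment to GRCh38 by STAR (ENCODE settings, modified), gene counts by HTSeq-count and testing by DESeq2. The annotation release, strand setting and use of molecular identifiers are not given in the sources used here, so PCR copies may be counted more than once. The deposited counts are raw whole reads per Ensembl gene. The deposited normalised table was not used. Of 60199 lines, 92 named no gene (3 counts) and were left out.

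Genes were filtered with filterByExpr, scaled with TMM and fitted in edgeR 4.0.16 (R 4.3.3; quasi-likelihood F test, 1 coefficient per group). The 12 libraries of 6 h, the 18 of 24 h and the 12 of both controls were fitted apart (12738, 13244 and 12500 genes). P-values were Benjamini-Hochberg adjusted over all genes tested, and the SE is the effect divided by the square root of F. The fits were also run on simulated counts with a fixed spread for all genes and with changes set only in well-counted genes. That run does not show how the fits perform on genes at a few CPM or with a wider spread. Alternatives were DESeq2 1.42.0, RLE size factors, library totals, no filter, a replicate block and leaving out each library. Effects averaged over the transfections of a time point were added after seeing the data.

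The 41 genes, their roles and the wider list were chosen with earlier results of these data known. Per-library values were given for genes called in a Sorafenib contrast (up to 16) and for SQSTM1, MAP1LC3B, ATG14, ATG16L1 and WIPI1. Up to 8 genes of the wider list were named by the number of contrasts calling them, and the others were named after their values were seen, as were UVRAG, OPTN, BECN1, ATG2A and ATG3. Same-numbered libraries deviated together in M222 against MC with DMSO (r = 0.137, 0.147 and 0.121). For Sorafenib against DMSO, r was also above 0 for every number in M222 (0.111, 0.08 and 0.057), IC (0.011, 0.06 and 0.186) and I200c (0.01, 0.045 and 0.128). The same held for M512 against MC with Sorafenib (0.04, 0.043 and 0.135), but not for the other contrasts of 2 groups. The main test did not use the replicate number, and the replicate block did. Total counts of 3938764 to 9657063 limit the precision of genes at a few CPM. The share of counts from genes of mitochondrial DNA was 24.2%, 24.2% and 17.5% in M512 Sorafenib replicates 1, 2 and 3. In I200c DMSO replicate 2 it was 26.8%, the highest of the 30 libraries. The part of these differences in the results was not tested. Gene positions and UTRs came from GENCODE 44. Some sequences and 1 gene of the wider list are not reported here.

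MAP1LC3B2, GABARAPL3 and ATG4AP1, near copies of members, had no counts in any library. Counts of CTSV and CTSLP2, listed as near copies of CTSL, are not given here. Neighbouring genes overlap the 3′ end regions of SQSTM1, BECN1, ATG14, WIPI1, ATG7, NPC1, ATG101 and GABARAPL2 on the opposite strand and of ATG9A, GABARAP, CTSD, MCOLN1, HEXA and NPC2 on the same strand, so these counts are uncertain.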

Additional observations from a re-analysis of the deposited data

Results flagged for a closer look

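LAMP2, ULK1 and PIK3C3 were picked out because every Sorafenib library lay on one side of DMSO in I200c at 6 h and on the opposite side in a 24 h transfection. The values are log2 fold changes of Sorafenib over DMSO, and the difference between the transfections was not tested. In I200c the groups did not overlap for 5 of 39 genes. The share of all genes whose groups do not overlap was not counted, so no background is given for this number. The 2.28% of all genes called in I200c is another measure. LAMP2 was at -0.45 in I200c and 0.31 in MC. ULK1 was at -0.56 in I200c, with 0.54 in M222 and 0.44 in M512. PIK3C3 was at 0.38 in I200c, with -1.32 in M222 and -0.62 in M512, but also at -0.36 in IC at 6 h, where its groups overlapped. Of these values the PIK3C3 effect in M222 alone passed the adjusted threshold.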

How the results depend on the processing

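Counts of called genes among the 41 moved by over 1.5 times in these cases. For Sorafenib in MC the count of 1 became 0 with library totals, 2 with DESeq2 and 2 with no filter. For M222 the count of 2 became 4 with DESeq2 and 4 with no filter. M512 against MC with DMSO went from 0 to 1 with no filter (OPTN), and the interaction of time with Sorafenib from 0 to 1 with DESeq2 (NBR1) and 1 with no filter (CTSD). The cause was not tested. RLE size factors changed none of the 17 counts. The replicate block changed 1, M512, from 5 to 7, adding GABARAP (adjusted p = 0.0116 by edgeR) and WIPI1 (0.0499), and in the 24 h average it lost ATG3 (0.0548) and gained GABARAP (0.0178). Without 1 library the counts ran from 0 to 1 in I200c (LAMP2 was called without I200c DMSO replicate 2), 0 to 2 in MC, 0 to 2 in M222, 3 to 5 in M512, 0 to 1 for the time interaction, 0 to 1 for the 6 h average and 10 to 14 for the 24 h average.

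Small effects at 6 h changed sign. With library totals CTSB in I200c was -0.011, SQSTM1 in the 6 h average -0.015 and PIK3C3 in the 6 h average -0.020. Without 1 library CTSB in I200c ran from -0.079 to 0.190, SQSTM1 from -0.127 to 0.105 in IC, from -0.001 to 0.120 in I200c and from -0.032 to 0.089 in the 6 h average, and PIK3C3 in that average from -0.052 to 0.087. ATG14 in I200c ran from -0.27 to 0.18, ATG16L1 from -0.198 to 0.044 in IC, from -0.095 to 0.147 in I200c and from -0.094 to 0.044 in the 6 h average, and WIPI1 in IC from -0.20 to 0.18. No effect of a called gene changed sign in a 24 h contrast. Depth limits TFEB, MCOLN1, ULK2 and ATG4A most, since 3 counts are 0.311 to 0.762 CPM.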

Other observations

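In the 24 h average 7 of 16 membrane genes of the lysosome in the wider list were called, 5 of them lower with Sorafenib. Over all genes tested 25.8% were called and 12.4% were called lower. The lower genes included the cystine exporter CTNS (-1.11, adjusted p = 0.000827 by edgeR), the sialic acid exporter SLC17A5 (-0.98, adjusted p = 0.00354) and the calcium channel TPCN1 (-0.90, adjusted p = 0.0132), while SCARB2, which carries glucocerebrosidase to the lysosome, was higher (0.65, adjusted p = 0.00152). Of the fusion genes, the SNARE STX17 (-0.74, adjusted p = 0.00186) and the tethering subunit VPS41 (-0.60, adjusted p = 0.00317) were lower, and the GTPase RAB7A (0.42, adjusted p = 0.00353) and the SNARE YKT6 (0.44, adjusted p = 0.00729) were higher. Among receptors for the endoplasmic reticulum, CCPG1 (1.54, adjusted p = 0.00201), SEC62 (0.56, adjusted p = 0.00259) and RTN3 (0.40, adjusted p = 0.0245) were higher. Each of these calls except RTN3 held without any 1 of the 18 libraries and under all 5 other settings. RTN3 was lost with library totals (adjusted p = 0.133), and in 1 of the 18 fits its adjusted p was 0.0501. The lower membrane genes CLCN7 and CLN3, not named above, held in 6 and 4 of the 18 fits.

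RTN3 was also the one gene of the wider list called in an oligonucleotide contrast, M512 against MC with DMSO (-1.34, SE 0.23, adjusted p = 0.00419). DDIT4 was called in I200c at 6 h and in the 6 h average (0.83, adjusted p = 0.00202), which held in each of the 12 fits with 1 library left out. SESN2 was called in no 6 h contrast, where its mean levels were 98.0 and 109.5 CPM in IC and 92.6 and 78.5 CPM in I200c. Neither gene was called in the interaction of time with Sorafenib in the control libraries.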
